A study of Mus musculus with 32 samples.

Results

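The sites described here are the cytidines of the DART-seq site list that lie inside the first exon of a gene. DART-seq marks N6-methyladenosine (m6A), the methyl group that the METTL3 enzyme complex adds to adenosines within mRNA: a fusion of the deaminase APOBEC1 with the m6A-binding YTH domain converts a cytidine next to the methylated adenosine to uridine, and the converted cytidine is read as a C-to-U change. The exons of each gene were merged on its own strand, and a site was a member when it lay in the 5′-most merged exon of a gene with 2 or more merged exons. Of 18147 distinct sites on the list, 1086 sites met this rule (5.98%), in 821 host genes. The list held 18231 lines, of which 84 repeated another line, and 3 of the 1089 member lines were such repeats. Each site carries a C2U value, the average percent of reads with the change over the 8 WT DART-seq libraries. The deposited value is an average, so the depth and the spread behind a site are unknown, and differences between exon classes are descriptions with no test.

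The neurons came from the hippocampi of newborn mice, pooled by litter, and were grown for 15 days on a microporous membrane whose upper side holds the cell bodies (soma) and whose lower side holds the axons and dendrites (neurites). WT neurons were from C57BL/6 mice and Mettl3 KO neurons from Mettl3Flox/Flox mice, labelled Mettl3-/-. Both received an AAV in which the neuronal hSyn promoter drives Cre and dTomato (50000 viral genomes per cell), and the promoter limits Cre to neurons among the cells of the culture. All cultures were silenced for 16 h with tetrodotoxin (1 µM), which blocks sodium channels, and the NMDA receptor antagonist D-AP5 (50 µM). KCl samples then received 55 mM KCl for 2 h and Ctrl samples did not. RNA-seq was made from 2 samples in each of the 8 combinations of genotype, compartment and treatment, and a matching DART-seq library was made in each case. The 2 samples of a group came from distinct litters, whereas Ctrl and KCl neurons shared a litter and soma and neurites a culture insert, so that groups compared within a genotype are not independent of each other. The soma side can also hold neurites, and p-values below rest on 2 samples a group.

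Most m6A in mRNA is known to lie near stop codons, in 3′UTRs and in long internal exons, while first exons carry the cap, the 5′UTR and often the start codon. In the 5′UTR, m6A is known for its links to translation initiation. First exons of many genes also overlap CpG islands, so that their sequence is rich in G and C.

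The first set of sequences shows 9 of the 10 sites with the highest C2U, since these carry the strongest signal among the members. All windows are 21 bases of RefSeq's GRCm38, 5′ to 3′ on the strand of the gene. Capitals mark the RAC triplet, in which R is A or G, the middle A is the candidate methylated base and the C is the converted cytidine. The start and end of each window stand before its sequence.

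Ntm, chr9:29962943-29962963, minus strand: ccgatcctGACaaaaaagaag
Arl4c, chr1:88699885-88699905, minus strand: aaaaaaccAACaaaaaacact
Ehd3, chr17:73805050-73805070, plus strand: gttctcttGACacaatccaca
Gm15446, chr5:109923753-109923773, plus strand: gaagttgtGACatggtgagta
Gspt2, chrX:94636976-94636996, plus strand: gaaatacgAACgagaagctaa
Rbm7, chr9:48495256-48495276, minus strand: aggcctggGACtggaacagcg
Ubb, chr11:62551421-62551441, plus strand: cgcaggaaGACaacagctacg
Fosl2, chr5:32136216-32136236, plus strand: aaggaggaAACagaagtttct
Nmt2, chr2:3284367-3284387, plus strand: tagacggaGACaatgaggagg

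The highest value among the members was 25.9% C2U, in Ntm, which encodes the adhesion protein neurotrimin. The site lay in the 5′UTR, 108 bases before the 3′ end of a first exon of 297 bases. The site of Arl4c, a small GTPase of the ARF family, had 23.4% C2U and lay in the 3′UTR inside a first merged exon of 3997 bases. Ehd3, an EH-domain protein of endosomal transport, followed with 20.3% in its 5′UTR. Ntm and Arl4c both had runs of A after the site, as the windows above show.

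Gm15446 had 17.2% at a site 3 bases before the end of its first exon, so the last letters of its window are intron. Gspt2, a translation termination factor, had 16.9% in coding sequence, and Rbm7, an RNA-binding protein of nuclear RNA decay, had 16.5% in the 5′UTR. The others shown were Ubb, a polyubiquitin gene, at 14.9%, Fosl2, an AP-1 transcription factor, at 14.8%, and Nmt2, an N-myristoyltransferase, at 14.5%. The window of 41 bases around each of these 9 sites occurred 1 time in the genome. Of the 182 sites above 20.2% C2U, the highest 1% of the whole list, 3 were members (Ntm, Arl4c and Ehd3). Of the whole list, 5.98% were members.

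The next windows show sites next to splice junctions and sites whose cytidine is followed by G, since both kinds recur below. They are 2 of the 3 highest further sites fewer than 5 bases from the exon's 3′ end, and the 2 highest sites of each of the most frequent 5-base contexts, CGACG and GGACG.

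Ppp1r2, chr16:31274840-31274860, minus strand: ggaagaggAACtgaggtgagt
Eif3c, chr7:126566070-126566090, minus strand: ctacggcaAACagtgagctgg
Prcc, chr3:87885303-87885323, minus strand: ccagcagcGACgatagtgagc
Mapkapk2, chr1:131097375-131097395, minus strand: ccatcaccGACgactacaagg
Prpf38a, chr4:108579025-108579045, minus strand: atcatccgGACgcgaatctat
Gclc, chr9:77754928-77754948, plus strand: ggcacaagGACgtgctcaagt

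In Ppp1r2, an inhibitor of protein phosphatase 1, the site with 7.92% C2U was 4 bases from the exon end. Eif3c, a subunit of translation initiation factor 3, had 7.50% at 1 base from the end. Their windows run over the exon end into the intron, where the letters gtga follow. Prcc had 11.4% and Mapkapk2, a stress-activated kinase, 7.20% in the CGACG context. Prpf38a, a splicing factor, had 6.56% and Gclc, the catalytic subunit of glutathione synthesis, 6.47% in the GGACG context.

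The label of these sites was checked against the transcripts of GENCODE M21. Of the 1086 members, 1055 (97.1%) lay in the first exon of at least 1 annotated transcript of the host, and 35 (3.22%) lay in the last exon of a multi-exon transcript. Hosts were mostly protein-coding, with 807 of 821 genes. The first merged exon of 8 members was shared by more than 1 gene, and the symbol named in the list chose the host. For 23 members the list named another symbol than the host, and in 12 of these the named gene held the site in another exon.

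C2U was lower in first exons than in the other classes. The median was 2.53% over the 1086 members (quartiles 1.47% and 4.12%, range 0.226% to 25.9%). It was 3.55% over 6548 sites in internal exons under 400 bases, 3.41% over 2706 sites in internal exons of at least 400 bases and 3.82% over 7116 sites in 3′-terminal exons. At least 10% C2U was reached by 40 members (3.68%) and by 9.73% of all other sites. Values under 1% were found at 145 members (13.4%) and at 5.97% of the other sites. An average can fall below the 1% that the authors asked of a called site, since it also covers libraries in which the site was not called.

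The same order held within RNAs. In 622 host genes with sites both in the first exon and elsewhere, the median of the first-exon sites was the lower of the pair in 400 genes (64.3%) and the higher in 222 genes. The median difference, first exon minus elsewhere, was -0.729 percentage points, with a median of 2.55% in the first exons and 3.40% elsewhere. The remaining 199 hosts had no listed site outside the first exon.

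GC content moved with this difference. The GC content of the 101 genomic bases around the site had a median of 64.4% for members (quartiles 58.4% and 70.3%) and 52.5% for all other sites. When all listed sites were divided by GC into 4 bins of about equal size, 812 members (74.8%) fell in the highest bin, above 58.4% GC, beside 18.2% of the other sites. In that bin the median C2U was 2.32% for members and 2.43% for the 3104 others. In the next lower bin it was 3.22% for 159 members and 3.14% for 4681 others. In the 2 bins of lowest GC, members had 3.43% (77 sites) and 3.99% (38 sites), beside 3.79% and 5.30% in the others. Medians of members and others thus lay close together at high GC and apart at low GC, where members were few. The part of base composition in the difference was not tested.

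**Figure D1:**
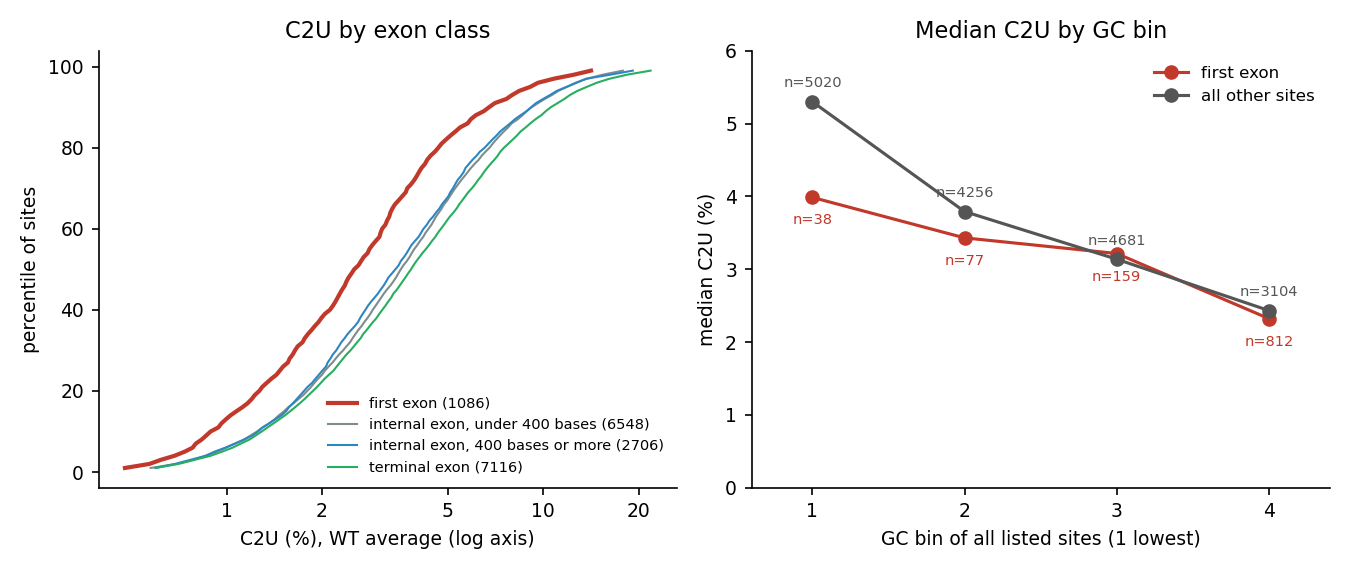
Left, percentile of sites (vertical axis) against C2U in percent on a log axis for 4 exon classes, with the number of sites of each class in the legend; the curve of first exons lies to the left of the others, with a median of 2.53% against 3.41% to 3.82%. Right, median C2U in percent for first-exon sites and all other sites in the 4 bins of GC content of the list, with the number of sites beside each point; the medians are 2.32% and 2.43% in the highest bin.

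First exons that held sites were long. Over the 821 hosts the median length of the first merged exon was 418 bases, beside 250 bases in the 4557 multi-exon genes with listed sites elsewhere only and 198 bases in all 33204 multi-exon genes. A longer exon also offers more positions to be listed, and the part of length in this difference was not tested. In first exons of at least 1000 bases lay 266 members, in 148 hosts, with a median C2U of 3.13% and 59.9% GC. The other 820 members had a median of 2.39% and 66.3% GC.

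Members lay around the start codon. First exons hold the 5′UTR and often the start codon, so the rule itself favours such positions. The counts by distance from the start codon were not set against the RAC triplets available there. Coding sequence held 612 members (56.4%), 5′UTR held 440 (40.5%), and 3′UTR held 5 (0.460%). The remaining 29 members were in no exon of a protein-coding transcript. Of all other sites, 1.68% lay in 5′UTRs. The members supplied 440 of the 726 listed 5′UTR sites. Measured along the mRNA with the longest coding sequence that holds the site, the distance from the start codon could be given for 1057 members. Its median was 26 bases downstream, the quartiles were 70 bases upstream and 149 bases downstream, and 496 members (46.9%) lay within 100 bases on either side. The bin from 0 to 49 bases after the start codon was the fullest of the bins of 50 bases, with 153 members, and the bin just before it held 133. The median C2U of members was 2.50% in coding sequence and 2.54% in 5′UTR. The 286 5′UTR sites outside first exons had a median of 2.84%, and the 10410 coding sites outside first exons had 3.44%.

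**Figure D2:**
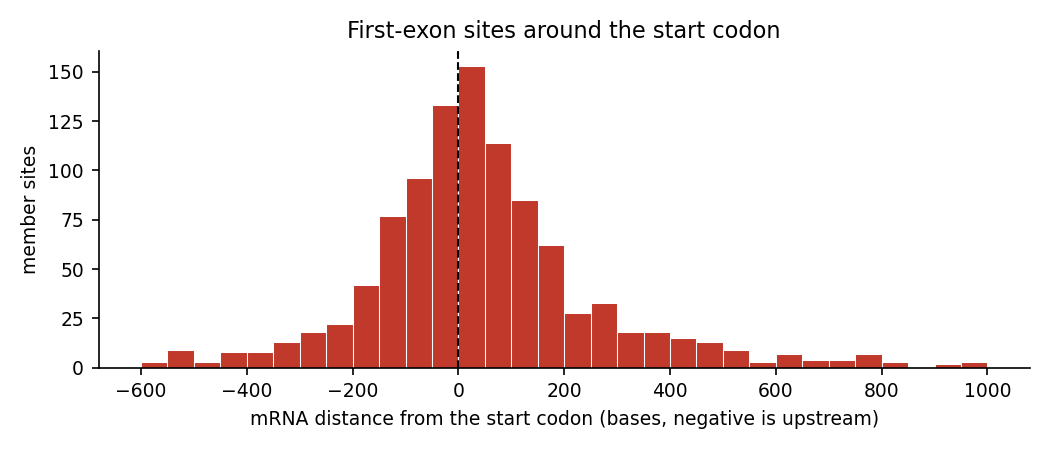
Number of first-exon sites (vertical axis) in bins of 50 bases of mRNA distance from the start codon (horizontal axis, in bases, negative upstream), with the start codon as a dashed line. The bins on either side of the start codon hold 133 and 153 sites and are the fullest of those drawn, which run from -600 to 1000 bases. The counts are not set against the RAC triplets available in each bin.

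To set the sites against the positions at which a site could be called, all RAC triplets in the merged exons of 12568 multi-exon genes were counted. These genes had a mean of at least 100 RNA-seq counts over the 4 WT Ctrl libraries. First exons held 7.58% of these triplets, and 7.63 of every 1000 triplets there were listed. The rate was 13.5 per 1000 in internal exons under 400 bases, 11.1 per 1000 in terminal exons and 4.62 per 1000 in internal exons of at least 400 bases. Read depth along the RNA enters these rates and is unknown.

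Within first exons the rate was lowest at the 5′ end and highest near the 3′ end. It was 1.10 per 1000 in the first 25 bases, 3.04 in the next 25 and 12.7 at 200 to 399 bases from the start. At 400 bases or more from the start, where 48.4% of the triplets lay, it was lower again, at 5.57. Counted from the 3′ end it was 15.6 per 1000 in the last 25 bases and 15.9 in the 25 before, and it fell to 3.68 at 400 bases or more. Of all members, 140 (12.9%) lay fewer than 25 bases from the 3′ end of the exon and 269 (24.8%) fewer than 50. In first exons of at least 400 bases the rates near the 3′ end were similar, at 15.1 and 16.2 per 1000, and from the start they went from 10.1 at 200 to 399 bases to 5.57 beyond. In long internal exons, which have a splice junction on both sides, the rate was 13.5 per 1000 in the first 25 bases and 8.08 in the last 25. In internal exons under 400 bases it was 14.5 in the last 25 bases and 14.4 in the 25 before. A high rate near the 3′ end was thus not particular to first exons. Terminal exons had 21.7 per 1000 in their first 25 bases. The members within 25 bases of the exon end had a median C2U of 3.05%, and those 25 to 49 bases away had 2.32%.

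**Figure D3:**
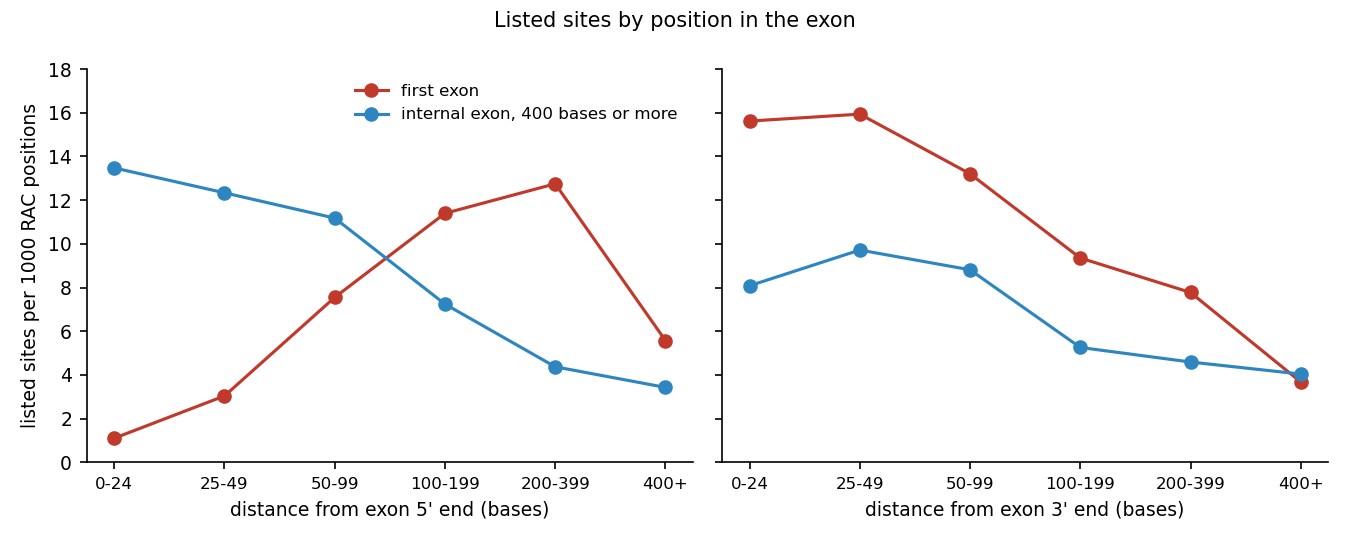
Listed sites per 1000 RAC triplets (vertical axis) by distance in bases from the 5′ end (left) and the 3′ end (right) of the exon, for first exons and for internal exons of at least 400 bases. In first exons the rate is 1.10 in the first 25 bases and 15.6 in the last 25, whereas in long internal exons it is 13.5 and 8.08. Internal exons under 400 bases, which are not drawn, have 14.5 in the last 25 bases.

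The base context of members was richer in GAC and in a following G than that of other sites. GAC made up 65.7% of members and 53.0% of other sites, the rest being AAC. In the first exons searched, GAC was 58.7% of the available RAC triplets. The converted C was followed by G at 28.5% of members, beside 13.0% of other sites and 18.1% of the triplets available in first exons. CGAC was found at 18.5% of members, 4.91% of other sites and 9.93% of the available triplets. Shares above the available triplets were also found in other exon classes. In long internal exons a following G was at 15.9% of sites and 7.31% of triplets, and CGAC at 6.06% and 2.85%. In internal exons under 400 bases these shares were 14.7% and 11.8% for G, and 5.69% and 4.95% for CGAC. In terminal exons CGAC was at 3.30% of sites and 2.53% of triplets. The part of the available triplets in the higher shares of members was not tested. The most frequent 5-base context among members in the genes searched was GGACG, with 84 sites, listed at 12.6 per 1000 triplets, followed by CGACG with 59 sites, at 15.5 per 1000. GGACT, a frequent m6A motif, was found at 3.59% of members, 3.67% of other sites and 4.88% of the triplets available in first exons. It was listed at 5.59 per 1000, beside 7.63 per 1000 over all triplets there. All contexts were read at the site itself, on the strand of the gene. Shares of members and of other sites are over all listed sites. Counts of 5-base contexts, rates per 1000 and the values of the other exon classes are over the genes searched. CGAC and a following G overlap in CGACG. The median C2U was 2.54% at members followed by G and 2.52% at members followed by another base.

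Some members were copies of each other. Among the 1086 members, 18 sites in 7 groups had a window of 41 bases equal to that of another member. The most edited such group lay in a cluster of zinc-finger genes on chromosome 2, and its shared window is printed once.

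Gm14440, chr2:175275183-175275203, plus strand: aagctcagAACtccaaacatg

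This window is found at members of Gm14440 (14.1% C2U), Gm14435 (14.1%), Gm14288 (13.2%) and Zfp965 (12.4%), each 10 bases before the end of the first exon. The 41-base window occurs 16 times in the genome. Reads from such copies cannot be assigned to a gene with certainty, so these 4 values may describe the same reads. Other groups were the histone H2B genes Hist1h2bp, Hist1h2bq and Hist1h2br at 6.09%, 4.02% and 4.23%, whose window occurs 15 times, the dynein light chain genes Dynlt1c and Dynlt1f at 3.26% and 3.21%, and 3 pairs in Nudt10 and Nudt11. The last group was Gm14325, Gm14399 and Zfp931 at 2.53%, 2.30% and 1.58%, whose window occurs 18 times.

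Most hosts had a single member site. It was 645 of 821 genes with 1 site, 124 with 2, 32 with 3 and 20 with 4 or more. Kif3c, a kinesin-2 motor subunit, had the most, with 9 sites in a first exon of 2400 bases. Of these, 2 lay in the 5′UTR, with 4.18% and 3.23%, and 7 in coding sequence. The 4 sites nearest the exon's 3′ end had 6.84%, 8.40%, 8.80% and 6.31%, all higher than the 2 in the 5′UTR. The other 3 coding sites had 3.27%, 3.07% and 6.82%, of which only the last was above both 5′UTR sites.

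Ppp1r15b, the regulatory subunit that directs protein phosphatase 1 to the initiation factor eIF2α, had 8 sites in 2473 bases. The 3 nearest the 3′ end had 7.87%, 6.71% and 6.25%, and the other 5 ranged from 1.38% to 3.33%. Pcdhgc3, a clustered protocadherin, also had 8 sites, all coding, from 1.97% to 5.79%. Josd1, a deubiquitinase, had 5 sites, of which the highest had 12.6% and the others 2.12% to 3.28%. Slc35e4, of the nucleotide-sugar transporter family, had 5 sites from 2.36% to 9.95%. Among 199 RNAs with at least 10 called sites, 48 had a member site, with 75 members in all. Of all 5643 RNAs with called sites, 192 had all of them in the first exon and 630 had some there. The part of the number of sites per RNA in this was not tested.

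In 192 RNAs of the 5643 with called sites, every called site was in the first exon, and in 630 more some were. For the 192 RNAs the authors' editing score, which they define as the sum of C2U over the called sites of an RNA, describes the first exon alone. It was not always the sum of the listed site values. In Arl4c a single site had 23.4% C2U, while the WT score over its 4 sites was 0.191. Of the 192 RNAs, 155 (80.7%) had 1 site. The highest WT scores belonged to Pcdhac2 at 0.318 with 4 sites, Pcdhgc3 at 0.299 with 8 sites, Gspt2 at 0.204 with 2 sites, Arl4c at 0.191 with 4 sites and Gm15446 at 0.172 with 1 site. In the clustered protocadherins a long first exon encodes the extracellular domains and is spliced to exons shared by the cluster.

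The authors' soma and neurites scores are averages over 4 WT libraries each. Among the 192 RNAs the neurites score was higher in 127 (66.1%) and the soma score in 65. The medians were 0.0266 in soma and 0.0318 in neurites. Among 4821 RNAs with no called site in the first exon, the neurites score was higher in 68.0%, and among the 630 with some sites there it was higher in 76.2%. Among RNAs with 1 called site it was higher in 65.8% of the 155 with the site in the first exon and in 57.8% of the 1670 with the site elsewhere. Pcdhac2 had 0.243 in soma and 0.427 in neurites, Arl4c 0.134 and 0.272, and Gm15446 0.0458 and 0.264. Gspt2 went the other way, with 0.241 in soma and 0.158 in neurites. In 16 RNAs the neurites score, and in 5 the soma score, was listed at 0.

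The authors' Mettl3 KO score had a median of 0.00602 for the 192 RNAs, with a median of 22.2% of the WT score, and it was listed at 0 for 36 of them (18.8%). For the RNAs with no called site in the first exon the median was 30.5% of the WT score, and 7.53% were listed at 0. Among RNAs with 1 called site the median was 20.6% where the site was in the first exon and 23.6% where it was not, with 21.9% and 19.3% listed at 0. A higher C2U in WT than in Mettl3 KO was a condition of calling a site, so these values describe the calls. By RNA, the KO score was 21% of WT in Pcdhac2, 23.9% in Pcdhgc3, 41% in Gspt2 and 53.1% in Arl4c, and for Gm15446 it was listed at 0.

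**Figure D4:**
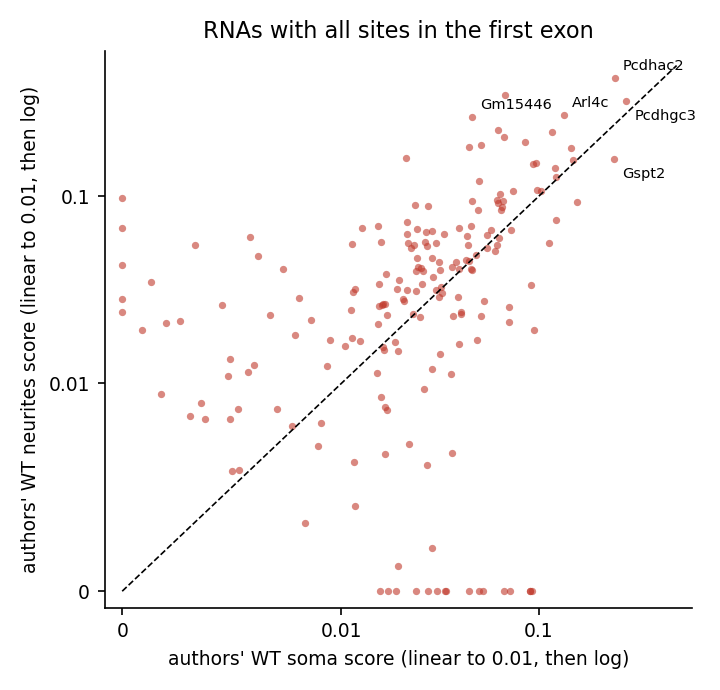
The authors' WT neurites score against their WT soma score, on axes linear to 0.01 and logarithmic above, for the 192 RNAs whose called sites all lie in the first exon; each point is 1 RNA and the dashed line marks equal scores. 127 points lie above the line, and 16 RNAs are listed at 0 in neurites and 5 in soma.

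Member sites were counted in the gene lists. Of 40 immediate early genes with several exons, 32 had a listed site and 8 (25%) had a member. For all multi-exon genes it was 821 of 5378 with a listed site (15.3%). In this group Fosl2 and Dusp6, a phosphatase of ERK kinases, had sites of 14.8% and 14.3%, Fosb had 10.3%, 8.12% and 0.856%, and Nr4a3 had 4 sites from 0.946% to 5.21%. The site of Fos, with 2.04%, lay 8 bases after the annotated start of the exon.

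Of 46 protocadherin genes, 7 had a listed site and 4 had a member (Pcdhac2, Pcdhgc3, Pcdhgc4 and Pcdh10), with 16 sites from 1.97% to 13.9%. Of 49 zinc-finger genes with a listed site, 10 had a member, from 1.20% to 12.4%, the highest being Zfp965 and Zfp948 (9.36%). Leucine-rich repeat adhesion genes had members in 3 of 10 genes with a site, Lrfn4 (6.94% and 0.833%), Lrrc4 (3.85%) and Lrrtm1 (2.25%). Potassium channel genes had them in 3 of 18, Kcnc4 (4.73%), Kcnd3 (3.23%) and Kcna6 (2.65%).

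In the other lists the share with a member was read against the same 15.3%. Chromatin regulators had 3 hosts among 49 genes with a site (6.12%), namely Smarcb1 (3.24%), Kdm1a (1.56%) and Chd3 (0.365%). Postsynaptic scaffolds had 1 host among 20 (5%), Dlg3 with 2.65%. None of the 9 genes of the m6A machinery with a listed site had a member. Neuron markers had 2 hosts among 10 genes with a site (20%). Snap25, a SNARE of synaptic vesicle release, had 6.20% and 1.32%, and Nefm, a neurofilament subunit, had 2.79%. Astrocyte markers had 1 host among 9 (11.1%), the transcription factor gene Sox9 with 2.03%. The microglia and oligodendrocyte lineage lists had no multi-exon gene with a listed site, and the list of fibroblasts or vessels had 1 gene with a site, outside the first exon.

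The RNA-seq counts give the levels of the host genes. The 16 libraries held 33789183 to 71394235 counts. Hosts had a median of 17.5 CPM (counts relative to the TMM-scaled library size) per kilobase of exon in WT soma Ctrl, beside 12.1 in the 4767 genes with listed sites elsewhere only. Mettl3, counted over the whole gene and not only over the deleted exon, had 8.69 and 11.6 CPM in the Mettl3 KO soma Ctrl libraries and 17.3 and 16.7 in WT soma Ctrl. Over all libraries it ranged from 3.88 to 11.6 CPM in Mettl3 KO and from 8.90 to 17.3 in WT. In soma Ctrl its log2 fold change was -0.73 ± 0.39 (SE), which did not pass the test (edgeR adjusted p = 0.624). Neuron markers (10 genes, none at 0) summed to 4794 to 7345 CPM in the WT libraries, and microglia markers to 10.7 to 26.3 CPM. The 2 Mettl3 KO KCl libraries of replicate 1 stood apart with 3511 CPM (soma) and 6963 CPM (neurites) of oligodendrocyte lineage markers, beside 57.8 to 203 CPM in the other 14. Other markers also spread widely between the Mettl3 KO KCl libraries. Neuron markers had 2413 and 6165 CPM in soma and 1368 and 7055 CPM in neurites, each from lowest to highest. Astrocyte markers had 2546 and 9592 CPM in soma and 2736 and 18572 CPM in neurites. In these bulk samples, fewer cells of a type and less RNA per cell cannot be told apart.

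In WT Ctrl, 113 of the 814 host genes tested were higher in neurites than in soma by at least 1.5-fold at an adjusted p of at most 0.05 (13.9%), where 9.01% of all 23200 genes tested were. The other 7 of the 821 hosts had too few counts. Host genes rest on sites called in soma and neurites libraries, and the part of this in the counts was not tested. Lower in neurites were 28 hosts (3.44%), where 4.54% of all genes were. Of 4725 genes with listed sites elsewhere only, 10.4% were higher and 4.51% lower. Nsmf, a messenger between synapse and nucleus, had 2761 and 3362 CPM in neurites and 820 and 885 CPM in soma. Its log2 fold change was 1.78 ± 0.16 (SE, edgeR adjusted p = 0.000153). The neurites libraries lay above both soma libraries. The named genes had to pass the threshold and move alike in both replicates, so such a separation was largely set by their choice.

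Tmcc2 had 448 and 540 CPM in neurites and 138 and 137 CPM in soma (log2 fold change 1.78 ± 0.13, edgeR adjusted p = 0.000114). Bag1, a cochaperone of Hsp70, had 137 and 141 CPM in neurites and 50.1 and 31.9 CPM in soma (1.70 ± 0.18 on the log2 scale, edgeR adjusted p = 0.000343). All 3 were higher in both neurites libraries. Their first-exon sites had 2.03%, 2.18% and 0.789% C2U.

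Among hosts lower in neurites, Pcsk2, a prohormone convertase, had 53.9 and 53.5 CPM in neurites and 96.3 and 96.4 CPM in soma (log2 fold change -0.91 ± 0.12, edgeR adjusted p = 0.00119). Mylip, a ubiquitin ligase of lipoprotein receptors, had 2.54 and 1.99 CPM in neurites and 3.70 and 4.58 CPM in soma (-0.93 ± 0.18, edgeR adjusted p = 0.00713). Gm49601 had 1.94 and 2.59 CPM in neurites and 4.63 and 5.55 CPM in soma (-1.24 ± 0.30, edgeR adjusted p = 0.0162). In these 3 the groups did not overlap either, which was again largely set by the choice of the genes.

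The astrocyte markers (11 genes, none at 0) summed to 2030 and 3267 CPM in the WT Ctrl neurites libraries and to 1201 and 1218 CPM in soma, and their part in the host counts was not tested. The counts over hosts and over all genes leaned on single libraries. Without WT soma Ctrl replicate 2, 69 hosts were higher and 3 lower, where 4.23% and 0.399% of all genes were. Without WT soma Ctrl replicate 1, 8 were lower (0.852% of all genes), and without WT neurites Ctrl replicate 2, 18 were lower (2.22% of all genes). In a fit of all 16 libraries 0 of the 23200 genes passed in either direction (edgeR), hosts included. At an unadjusted p under 0.05, 63 hosts were higher and 9 lower in it, and the share of all genes was not counted. In that fit Nsmf had a log2 fold change of 1.88 (edgeR adjusted p = 0.322) and Bag1 1.80 (edgeR adjusted p = 0.540), as large as above.

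After KCl in WT soma, 47 of 814 hosts rose by at least 2-fold (5.77%), where 3.74% of all 24060 genes tested rose. Sites were called at 50 or more reads in libraries that include KCl ones. A gene that rises with KCl can thus become a host through the KCl libraries, and the part of this in the 47 was not tested. Lower after KCl were 7 hosts (0.860%), where 2.96% of all genes were. Of 4730 genes with listed sites elsewhere only, 3.68% rose and 0.994% fell. All 8 hosts among the immediate early genes rose (Fos, Fosb, Egr1, Egr4, Fosl2, Nr4a3, Klf6 and Dusp6), as did 38 of the 45 genes of that list tested, whose median log2 fold change was 3.37 against 0.01 over all genes. Immediate early genes are known for rapid induction by neuronal activity. Fosb, an AP-1 subunit, had 329 and 499 CPM after KCl and 1.19 and 1.70 CPM in Ctrl (log2 fold change 8.17 ± 0.27, edgeR adjusted p = 2.62e-08).

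Fos, the best known AP-1 subunit, had 3144 and 2688 CPM after KCl and 13.3 and 12.8 CPM in Ctrl (7.80 ± 0.15, edgeR adjusted p = 1.20e-09). Egr1, a zinc-finger transcription factor, had 1088 and 1582 CPM after KCl and 44.6 and 37.0 CPM in Ctrl (5.04 ± 0.20, edgeR adjusted p = 1.28e-07). Ppp1r15b, with its 8 first-exon sites, also rose, by 2.40 on the log2 scale (edgeR adjusted p = 7.32e-07). The site values of these hosts average Ctrl and KCl libraries.

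Among the 7 hosts that fell, Txnip, an inhibitor of thioredoxin, had 8.32 and 4.88 CPM after KCl and 29.8 and 39.1 CPM in Ctrl (log2 fold change -2.39 ± 0.27, edgeR adjusted p = 0.000233). Hcn2, a hyperpolarization-activated channel, had 3.89 and 5.50 CPM after KCl and 17.6 and 9.69 CPM in Ctrl (-1.53 ± 0.26, edgeR adjusted p = 0.00344). Gm49601 had 0.633 and 1.04 CPM after KCl and 4.63 and 5.55 CPM in Ctrl (-2.58 ± 0.31, edgeR adjusted p = 0.000398). KCl libraries lay below both Ctrl libraries in all 3, which was largely set by the choice of the genes. Without WT soma KCl replicate 2 the number of hosts that fell was 27 (3.53% of all genes fell), and without WT soma Ctrl replicate 1 it was 2 (0.917% of all genes). Astrocyte markers summed to 1624 and 1638 CPM after KCl and 1201 and 1218 CPM in Ctrl, and their part in the counts was not tested.

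In Mettl3 KO against WT, Ctrl soma, 0 of 814 hosts were higher and 1 was lower by at least 1.5-fold (edgeR), where 0.0632% and 0.122% of all 23750 genes tested were. At an unadjusted p under 0.05, 57 of the 814 hosts were higher and 35 lower. The share of all genes at that level was not counted, so these numbers do not set hosts apart. The host that fell was Pop4, a subunit of RNase P and RNase MRP, with 11.4 and 11.5 CPM in Mettl3 KO and 33.8 and 35.3 CPM in WT (log2 fold change -1.57 ± 0.23, edgeR adjusted p = 0.0194). Its first-exon site, in the 5′UTR, had 8.97% C2U. These counts turned on the method and on single libraries. DESeq2 called 5 hosts higher and 10 lower, where it called 0.804% and 0.952% of all genes. Without Mettl3 KO soma Ctrl replicate 1, 50 hosts were higher and 108 lower, where 2.64% and 8.70% of all genes were. Without WT soma Ctrl replicate 1 or replicate 2 no host passed, where 0.0214% and 0.0168% of all genes were lower. Without the pair of KCl libraries with high oligodendrocyte markers, 6 were higher and 11 lower, where 123 and 296 of all 23750 genes were. Astrocyte markers summed to 2062 and 2473 CPM in Mettl3 KO soma Ctrl and 1201 and 1218 CPM in WT, and their part was not tested.

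**Figure D5:**
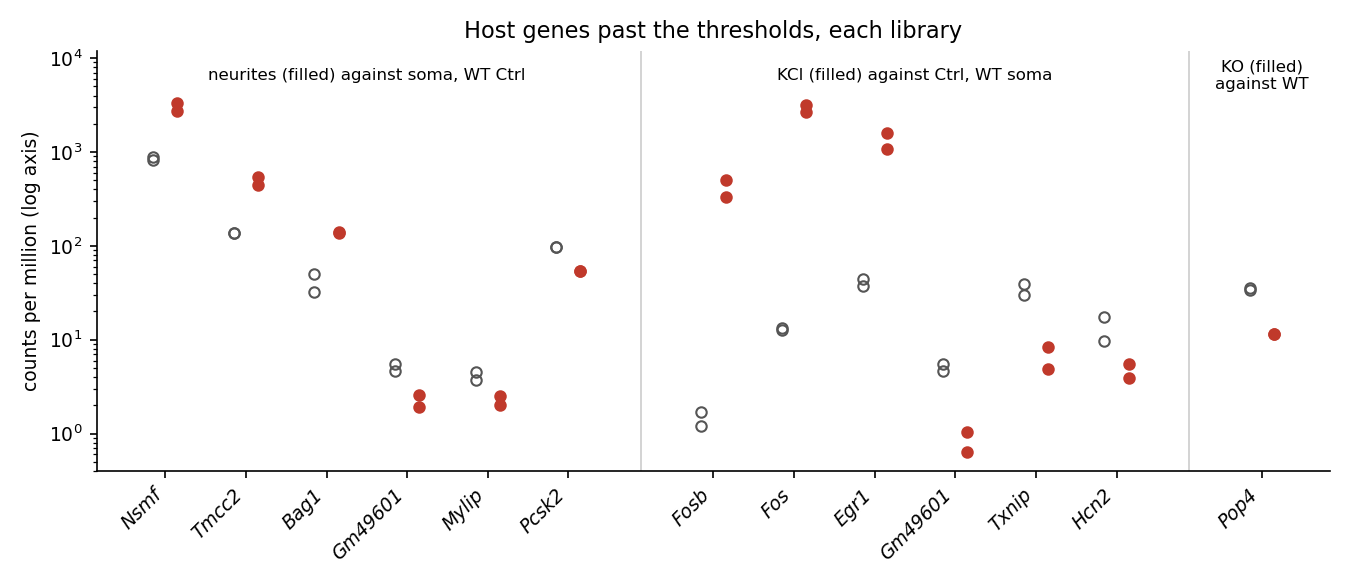
CPM on a log axis for the host genes named in the 3 comparisons, with 1 circle for each library and 2 libraries a group; open circles are the reference group (soma, Ctrl or WT) and filled circles the other (neurites, KCl or Mettl3 KO). The genes were chosen for passing the threshold and moving alike in both replicates, so that filled and open circles do not overlap was largely set by this choice. The genes run from Nsmf (820 and 885 CPM open, 2761 and 3362 CPM filled) to Pop4 (33.8 and 35.3 CPM open, 11.4 and 11.5 CPM filled).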

How the data were processed

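Neurons from WT mice and from Mettl3Flox/Flox mice, the latter made Mettl3 KO in culture by Cre, were profiled by RNA-seq (16 libraries) and DART-seq (16 libraries). The authors aligned reads to mm10 with STAR 2.7.7a and counted fragments with featureCounts 2.0.1 on Ensembl annotation, so the deposited count table holds raw counts per gene. Counting used no strand and kept multi-mapping reads, so antisense genes, overlapping genes and near-identical copies are uncertain. The deposited C2U fraction of a site is the authors' average over 8 WT DART-seq libraries. They called sites at RAC triplets with at least 50 reads, 3 mutations, 1 to 95% C2U, 1.25-fold over each and 1.5-fold over the average of the Mettl3 KO libraries, in at least 2 replicates. The authors describe the deposited editing score per RNA as a sum of C2U over called sites. In RNAs with 1 called site the WT score equalled the site value within 1e-06 for 68.5%. Read depth per site is not used here. The authors' own fold changes and p-values in their neurite enrichment and DART-seq tables were not used.

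Exons were merged per gene from the count table, and transcripts and sequence came from GENCODE M21 and RefSeq's GRCm38 with pysam 0.24.0 and samtools 1.23.1. A site in several annotated regions was read as coding, then 5′UTR, then 3′UTR. Members and gene lists were chosen with earlier results of these data known. Host genes were tested in edgeR 4.0.16 (R 4.3.3, quasi-likelihood test, TMM, 1 coefficient a group, no block), over nuclear genes averaging 10 or more counts in the compared libraries, with Benjamini-Hochberg adjustment over all genes tested. The WT comparisons were fitted on the 8 WT libraries and Mettl3 KO on all 16. This split was chosen after WT libraries were found to vary less than Mettl3 KO ones. The common coefficient of variation between samples of a group in edgeR was 0.150 and 0.151 in the WT fits. It was 0.375 in the fit of all 16 libraries. CPM are scaled by TMM. Library totals ran from 33789183 to 71394235. The script was tested on simulated data. Alternatives were DESeq2 1.42.0, RLE scaling, other filters, other sets of libraries, a replicate block and leaving out each library. Named, except 2 sites that are not reported here, are the hosts of the 10 highest sites, the 5 hosts with most sites, the 5 RNAs with the highest WT score among those with all called sites in the first exon, up to 4 genes a list, and per comparison the 3 largest rises and falls among hosts past the threshold that averaged 100 or more counts and moved alike in both replicates. The splice-junction and CGACG or GGACG windows, the sequence copies and Ppp1r15b under KCl were chosen after their values were seen.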

Additional observations from a re-analysis of the deposited data

Results flagged for a closer look

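For 2 named hosts the difference under a contrast had 1 sign in both replicates in 1 context and the other sign in another context. The differences were not tested, with 2 replicates each. Each value pairs libraries of the same replicate number, which the labels do not tie to a litter or insert. Fos was higher in neurites than in soma in Ctrl (0.62 and 0.41 on a log2 scale of CPM plus 0.5) and lower in KCl (-0.93 and -0.52), a mean difference of -1.23 between the treatments. Arl4c rose with KCl in WT soma by 0.40 in 1 replicate and hardly moved in the other (0.02). In Mettl3 KO soma it moved by -0.92 and -1, a mean difference of -1.17 between the genotypes. The Mettl3 KO soma KCl library of replicate 1, with 3511 CPM of oligodendrocyte lineage markers, enters the values of Arl4c, and its part was not tested.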

How the results depend on the processing

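A minimum of 0.05 on the C2U fraction left 190 of the 1086 members and moved their median fraction from 0.0253 to 0.0730, since it removes low sites. The median was 0.0253 over sites in a first exon of an annotated transcript, 0.0252 without sites in several first exons and 0.0252 without sites in a last exon. The other 4 definitions left 1051 to 1078 members. Reading 5′UTR before coding sequence moved the share in coding sequence from 56.4% to 53.8%. Hosts higher in neurites numbered 69 to 115 with 1 library left out and 0 with all 16 libraries. Hosts lower in neurites numbered 3 to 39, 0 with all 16 libraries and 18 with the 4 libraries compared only. Hosts higher after KCl kept within 1.5 times of 47 under all 11 alternatives, and hosts lower after KCl numbered 2 to 27 with 1 library left out and 1 with all 16 libraries. In Mettl3 KO, DESeq2 gave 5 higher and 10 lower hosts (0.804% and 0.952% of all genes). No filter on low counts gave 4 lower (0.0798% of all genes). The 4 libraries compared only gave 0 lower, with 0 of all genes lower. The share of all genes was not counted for the 43 hosts lower in them at an unadjusted p under 0.05. With 1 library left out, 0 to 50 were higher and 0 to 108 lower. Leaving out the pair of Mettl3 KO KCl libraries with high oligodendrocyte markers, an alternative chosen after seeing the data, gave 6 and 11. The cause of these changes was not tested. In the fits with 1 library left out, the lone sample is assumed to vary like the other groups. With the 4 libraries compared only, 3.21% of all genes were lower in neurites. With a replicate block, 110 hosts were higher and 28 lower in neurites (8.27% and 4% of all genes). After KCl it gave 45 higher and 7 lower hosts (3.53% and 2.71% of all genes). In Mettl3 KO, fitted on 4 libraries, it gave 0 higher and 0 lower, with 0 of all genes in either direction. At an unadjusted p under 0.05, 23 and 37 hosts were, and the share of all genes was not counted. The study took soma and neurites from the same culture insert and Ctrl and KCl from the same litter, but the labels do not say that the number marks either. Deviations of same-numbered samples correlated at -0.0704 (neurites and soma), 0.0345 (KCl and Ctrl) and 0.115 (Mettl3 KO and WT) over genes. Named hosts were chosen for passing the threshold in the main fit and moving alike in both replicates. How their values hold under the alternatives, which refit the same libraries, was largely set by this choice. Of 143 values of named hosts under the alternatives, 125 stayed past the threshold, 18 did not and 0 changed sign.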
